A study of Mus musculus with 6 samples.

Results

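The genes described here are 10 genes of canonical Wnt signalling, out of 55536 gene identifiers in the count files: the ligands Wnt2 and Wnt4, the R-spondins Rspo1, Rspo2 and Rspo3, and the response genes Axin2, Lef1, Tcf7, Nkd1 and Nkd2. They were taken by symbol, each matching 1 identifier of the GENCODE vM21 annotation, and the 5 ligand genes were examined apart from the 5 response genes. Their levels were measured by bulk RNA-seq in stromal cells of mouse quadriceps sorted as CD45-CD31-CD29+, that is without the common leukocyte and endothelial surface proteins and with integrin beta-1. All mice carried a tdTomato p16 reporter on the C57Bl/6 strain, and p16 is a cell cycle inhibitor whose expression often serves to mark senescence. There were 3 libraries of tdTomato-positive (p16+) and 3 of tdTomato-negative (p16-) cells, from a model of foreign body fibrosis. Per the labels' protocols, quadriceps muscle was resected on both sides at 10 weeks of age, the defect received 30 mg of polycaprolactone particles, decellularized extracellular matrix or 50 uL of saline, and tissue was taken 1 or 6 weeks later. The filler and the time of each library are not given in the sources used here, so it is not known whether they were equal in both groups. The labels also do not say that replicates were separate animals, and a p-value here reflects the spread among these libraries alone, which may be technical.

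Canonical Wnt ligands bind a Frizzled receptor together with Lrp5 or Lrp6, which stops the destruction complex from degrading beta-catenin, and beta-catenin then acts in the nucleus with transcription factors of the TCF/LEF family. R-spondins bind Lgr receptors and keep the ligases Znrf3 and Rnf43 from removing Frizzled receptors, so they strengthen a Wnt signal without starting one. Axin2, Nkd1 and Nkd2 are transcribed in response to the pathway and restrain it, which makes their transcripts common readouts of Wnt activity. In skeletal muscle, Wnt ligands and R-spondins are known for their part in repair and in fibrosis after injury.

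TCF/LEF proteins recognise words that begin with CTTTG, and the promoters of 3 response genes are shown here as sequence context for the levels given below. Whether these promoters have a part in those levels was not tested. RefSeq promoter windows (GRCm38.p6, 250 bases before and 50 after a start site) were at hand for 8 of the 10 genes, in 12 windows. For Axin2, the one gene that passed the test, for Nkd2, whose values went the opposite way, and for Lef1, which was not detected, the 250 bases before the start are printed 5′ to 3′, with each CTTTG, or CAAAG where the word lies on the other strand, in capitals.
Axin2 (chr11:108920099-108920348, plus strand): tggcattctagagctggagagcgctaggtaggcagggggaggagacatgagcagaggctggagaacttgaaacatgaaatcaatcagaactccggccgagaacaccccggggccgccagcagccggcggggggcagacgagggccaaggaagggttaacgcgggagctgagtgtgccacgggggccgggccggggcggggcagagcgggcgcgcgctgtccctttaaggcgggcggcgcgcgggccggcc
Nkd2 (chr13:73847632-73847881, minus strand): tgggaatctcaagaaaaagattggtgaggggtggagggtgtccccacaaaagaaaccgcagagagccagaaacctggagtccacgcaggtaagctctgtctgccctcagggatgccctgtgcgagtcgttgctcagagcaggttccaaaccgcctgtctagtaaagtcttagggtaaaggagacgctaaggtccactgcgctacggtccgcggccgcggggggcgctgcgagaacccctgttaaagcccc
Lef1 (chr3:131110047-131110296, plus strand): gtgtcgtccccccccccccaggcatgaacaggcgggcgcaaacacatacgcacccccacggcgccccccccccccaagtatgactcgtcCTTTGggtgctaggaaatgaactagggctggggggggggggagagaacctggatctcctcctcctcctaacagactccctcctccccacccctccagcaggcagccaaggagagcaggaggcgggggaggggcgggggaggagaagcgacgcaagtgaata
Lef1 has 4 windows, and the one printed belongs to its most upstream start site and holds CTTTG once before the start. A different window, at a start site inside the gene, was the 1 of the 4 with a longer word (CTTTGAA or CTTTGAT, with the alternatives CTTTGTA or CTTTGTT, on either strand). All 4 Lef1 windows held CTTTG, and the windows of the 7 other genes held none. Over 32851 promoter windows of the same length, 53.9% held CTTTG and 16.9% a longer word, both strands searched and the longer words containing the shorter one. These windows were not matched for base composition. The share of G and C was 58.3% to 84.3% in the windows of the 7 genes and 43.7% to 67.3% in those of Lef1. Its median over all windows was 52.7%. Sequence outside the windows was not searched. A match is a string of letters and not a measured binding site.

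Totals were 35253406 to 39103909 counts per library. Cdkn2a, the gene of p16, rose from 2.12 ± 0.328 to 7.82 ± 0.960 CPM, in the direction of the sort (SD, n = 3 each; edgeR log2 fold change 1.88, adjusted p = 2.0e-05). CPM are the counts divided by the library size after scaling with TMM factors. Over all genes measured, 15903 passed the filter on low counts and 16.7% of them passed an adjusted p of 0.05, 8.69% higher and 8.04% lower in p16+, with a median log2 fold change of -0.01. With library sizes alone, without TMM factors, 36.0% of the called genes were higher in place of 52.0%. The groups did not overlap in 33.1% of genes. Both groups carried mesenchymal genes at high levels, as the sort intends: 7 markers summed to 116654 to 122749 CPM in p16+ and 70589 to 84324 CPM in p16-, and 5 of the 7 rose. Marker sums of other cells also moved with the groups. The 8 pericyte and smooth muscle markers summed to 1786 to 1812 CPM in p16+ and 1198 to 1504 CPM in p16-, the 8 glial markers to 66.7 to 79.9 and 116 to 187 CPM, and the 10 macrophage and leukocyte markers to 254 to 285 and 178 to 205 CPM. Of these lists 5 of 8, 0 of 8 and 3 of 10 markers rose and 0, 6 and 0 fell. The 9 satellite cell and muscle fibre markers summed to 28.1 to 42.1 and 26.0 to 29.4 CPM, and the 6 epithelial markers to 0.247 to 0.759 and 0.671 to 1.498 CPM. Of the satellite and muscle markers 2 rose and 1 fell, and of the epithelial markers 0 did either. The 9 endothelial markers summed to 70.5 to 98.1 CPM in p16+ and 175 to 208 CPM in p16-, although 3 of them rose and only 1, Tek, fell. Without Tek, a gene left out after its values were seen, the endothelial sums were 27.6 to 42.4 and 21.8 to 27.5 CPM, with 3 of 8 markers higher and 0 lower. The part of these cells in the results below was not tested, and in bulk samples fewer cells of a type and less RNA per cell cannot be told apart.

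The first question was whether p16+ cells differed from p16- cells in the Wnt and R-spondin transcripts they carry. None of the 5 ligand genes passed: 0 were called by edgeR's quasi-likelihood test, where 16.7% of all genes tested were. At an unadjusted p under 0.05 there were 3, all higher in p16+, namely Wnt4, Rspo2 and Rspo3. Of all 15903 genes tested, 4473 were under it, 2254 of them higher in p16+. Of the 5 ligand genes DESeq2 called 1, Wnt4, and limma-voom called 0. The median log2 fold change of the 5 was 0.67, with a range from -0.32 to 1.11, beside -0.01 over all genes tested.

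**Figure D1:**
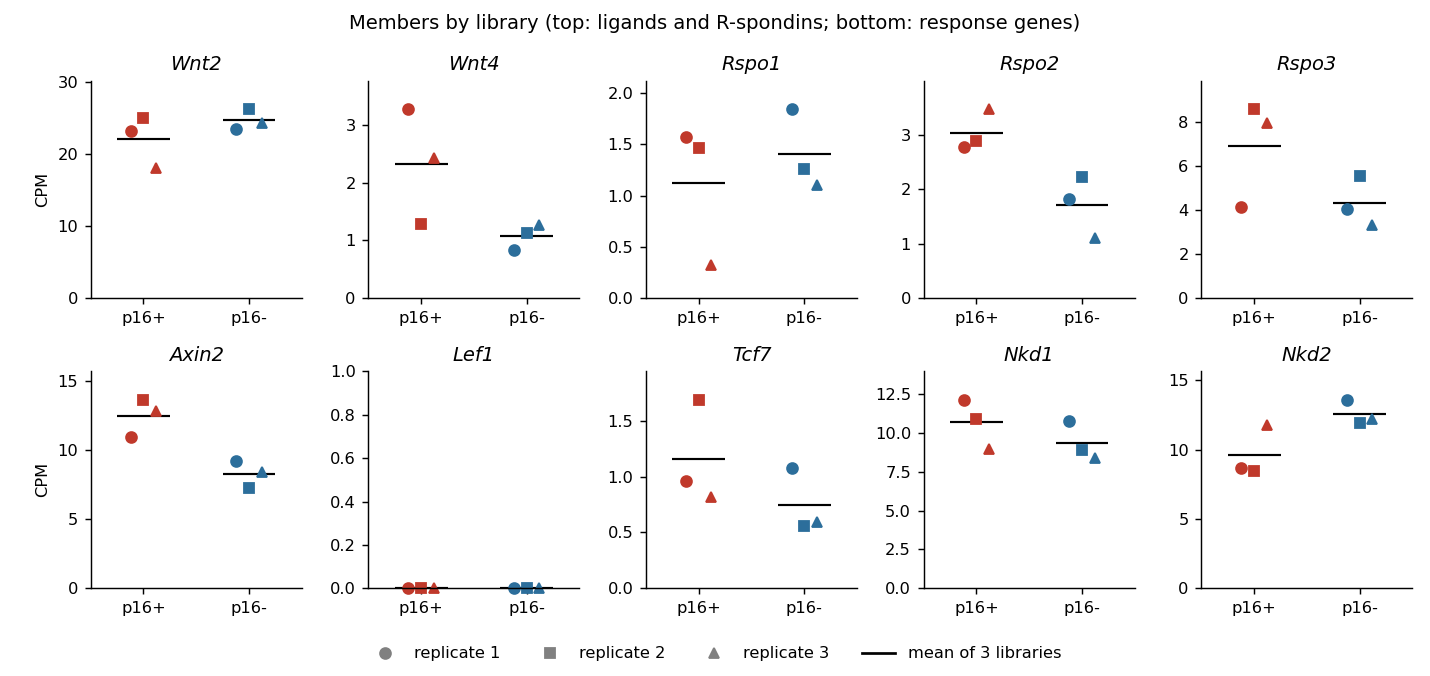
Level of each of the 10 genes in each library, in CPM on axes of their own that start at 0; the marker shape gives the replicate number and the bar the mean of 3 libraries. Axin2, Rspo2 and Wnt4 (the last, in CPM, only with TMM factors) do not overlap with p16+ higher, Nkd2 does not overlap with p16- higher, and Lef1 is at 0 in all 6 libraries.

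Wnt2 (chromosome 6, 17988940 to 18030585, minus strand, GRCm38), a canonical ligand, was the most abundant of the members per length, with the values in TPM given below. In p16+ replicates 1 to 3 its levels were 23.1, 24.9 and 18.03 CPM, and in p16- replicates 1 to 3 they were 23.4, 26.2 and 24.3 CPM. The groups overlapped, and p16+ replicate 3 was the lowest of the 6 libraries. In the fit the log2 fold change came to -0.16 (SE 0.12; adjusted p = 0.446, edgeR), with a 95% interval from -0.42 to 0.10, or from 0.745 to 1.07 times the p16- level. The counts behind these levels were 618 to 915 per library in p16+ and 904 to 1038 in p16-.

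Wnt4 (chromosome 4, 137277489 to 137299726, plus strand), a ligand that signals with or without beta-catenin depending on the cell, was much scarcer. Its levels were 3.27, 1.28 and 2.42 CPM in p16+ and 0.835, 1.13 and 1.26 CPM in p16-. No p16+ library lay below a p16- library, although p16+ replicate 2 exceeded the highest p16- library, replicate 3, by little. Both had 47 counts, from totals of 37861713 and 36507067, so their order, and with it the lack of overlap, came from the TMM factors. The estimate was the largest of the 9 members tested, a log2 fold change of 1.11 (SE 0.41, 95% interval 0.23 to 1.98), and did not pass (adjusted p = 0.0814, edgeR). It rested on 47 to 119 counts per library in p16+ and 34 to 47 in p16-. Single libraries decided the call: without p16+ replicate 2 the log2 fold change was 1.40 (adjusted p = 0.0311, edgeR), and without p16+ replicate 1 it was 0.78 (adjusted p = 0.336).

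Among the R-spondins, Rspo3 was the most abundant in both groups once length was taken into account. Per length it had 8.80 ± 3.14 TPM in p16+ and 5.50 ± 1.51 TPM in p16-. TPM are the counts divided by gene length and then scaled to the same sum in every library. Rspo2 had 2.34 ± 0.306 and 1.32 ± 0.441 TPM, and Rspo1 had 2.27 ± 1.40 and 2.83 ± 0.704 TPM (SD, n = 3 each). Rspo1 and Rspo2 lay within each other's spread in p16+.

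Rspo1 (chromosome 4, 124986430 to 125009099, plus strand) gave 1.57, 1.47 and 0.321 CPM in p16+ and 1.84, 1.26 and 1.10 CPM in p16-. The groups overlapped, and p16+ replicate 3, with 11 counts, stood far below the other libraries, so that the highest p16+ library was 4.88 times the lowest. The log2 fold change of -0.32 (SE 0.53, adjusted p = 0.749, edgeR) had a 95% interval from -1.45 to 0.81 and its sign was not fixed: without p16+ replicate 3 it was 0.11.

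Rspo2 (chromosome 15, 43020794 to 43170826, minus strand) gave 2.78, 2.88 and 3.47 CPM in p16+ and 1.82, 2.22 and 1.10 CPM in p16-. Every p16+ library was above every p16- library. At a log2 fold change of 0.83 (SE 0.33, 95% interval 0.13 to 1.53) the gene did not pass (adjusted p = 0.104, edgeR). It was not called under any of the 14 alternative settings, in which its adjusted p ran from 0.0714 to 0.327.

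Rspo3 (chromosome 10, 29452416 to 29535867, minus strand) gave 4.15, 8.57 and 7.94 CPM in p16+ and 4.05, 5.54 and 3.33 CPM in p16-. Replicates 2 and 3 of p16+ were above all p16- libraries, and p16+ replicate 1 lay among them. The log2 fold change was 0.67 (SE 0.27, 95% interval 0.10 to 1.25) and did not pass (adjusted p = 0.107, edgeR). It passed without p16+ replicate 1 (log2 fold change 0.93, adjusted p = 0.0169), without p16- replicate 2 (0.90, adjusted p = 0.0497) and with no filter on low counts (0.67, adjusted p = 0.0268). Of its exonic length 13.07% overlaps Gm48159 on the opposite strand, where fragments could not be assigned because the libraries do not mark strand.

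The ratio of Rspo3 to Rspo1 in TPM was 15.5 in p16+ replicate 3, against 1.66 and 3.66 in the other p16+ libraries and 1.38 to 2.76 in p16-. The high ratio came with the low Rspo1 level of that library, at 11 counts, while Rspo3 there lay between the other p16+ libraries. No test was made of this ratio.

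The second question was whether the transcripts that respond to the pathway differed. Of the 5 response genes 1 rose, Axin2, 3 did not pass and Lef1 was too low to be tested. The median log2 fold change of the 4 tested was 0.39, with a range from -0.39 to 0.64. Among all 9 members tested, 4 had groups that did not overlap, where 33.1% of all genes tested had none. For Wnt4 in CPM this depended on the TMM factors. Of the 9, 1 was called, where 16.7% of all genes were. Each of the 9 tested had at least 11 counts in every library.

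**Figure D2:**
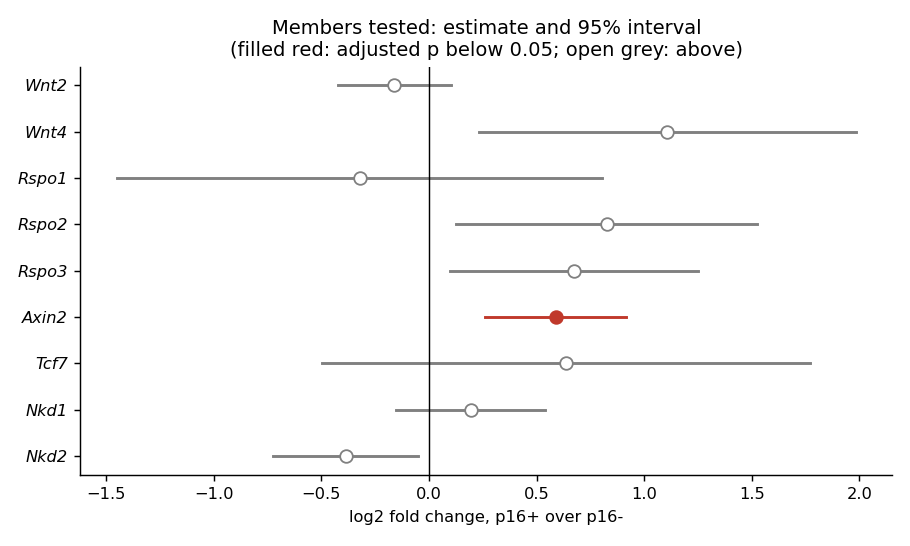
Estimated log2 fold change of the 9 tested genes, p16+ over p16- (horizontal axis), with 95% intervals as lines. The filled red point is Axin2, the single gene with an adjusted p below 0.05, at 0.59; the intervals of Wnt2 and Nkd1 are the narrow ones around 0, and those of Rspo1 and Tcf7 span the widest range.

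Axin2 (chromosome 11, 108920349 to 108950783, plus strand), a scaffold of the destruction complex that feeds back on the pathway, rose 1.504-fold. Its levels were 10.97, 13.7 and 12.9 CPM in p16+ and 9.21, 7.26 and 8.46 CPM in p16-, from 399 to 502 and 288 to 375 counts per library. All 3 p16+ libraries stood above all 3 p16- libraries, with means of 12.5 ± 1.38 and 8.31 ± 0.985 CPM (SD, n = 3 each). The log2 fold change was 0.59 (SE 0.15, 95% interval 0.26 to 0.92, adjusted p = 0.0145, edgeR's quasi-likelihood test). An exact permutation test of the log2 CPM values (two-sided) cannot go below 0.1 with 3 libraries a side, and gave p = 0.1 here. The call was lost without p16+ replicate 2 (adjusted p = 0.0738), without p16+ replicate 3 (0.0551) and without p16- replicate 2 (0.0601), and it was kept in the other 11 of 14 alternative settings, with a log2 fold change of 0.50 to 0.67 in all 14. Axin1, its constitutively expressed relative, had means of 49.2 ± 2.51 CPM in p16+ and 50.7 ± 2.51 CPM in p16- (log2 fold change -0.05, adjusted p = 0.775, edgeR), a gene chosen for this comparison after its values were seen.

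Nkd1 and Nkd2, paired inhibitors that bind Dishevelled, went opposite ways in their estimates, and neither passed. Nkd1 (chromosome 8, 88521354 to 88594884, plus strand) gave 12.1, 10.9 and 8.99 CPM in p16+ and 10.7, 8.87 and 8.41 CPM in p16-, so the groups overlapped. Its log2 fold change was 0.19 (SE 0.16, adjusted p = 0.495, edgeR), with a 95% interval from 0.898 to 1.45 times the p16- level. Nkd2 (chromosome 13, 73818534 to 73847631, minus strand) gave 8.66, 8.43 and 11.8 CPM in p16+ and 13.6, 11.9 and 12.2 CPM in p16-. Every p16- library lay above every p16+ library, but p16+ replicate 3 came within a small distance of the lowest of them. The log2 fold change was -0.39 (SE 0.16, 95% interval -0.73 to -0.05, adjusted p = 0.115, edgeR), and without p16+ replicate 3 it was -0.56 (adjusted p = 0.0351).

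In the ratio of this pair, p16+ replicate 3 differed from the other p16+ libraries. Per length, the ratio of Nkd1 to Nkd2 in TPM was 1.48 and 1.37 in p16+ replicates 1 and 2, and 0.809 in replicate 3. It was 0.730 to 0.835 in p16-, so p16+ replicate 3 lay within the p16- range. That library was also the lowest of the p16+ libraries in Wnt2, Rspo1, Tcf7 and Nkd1 and the highest in Rspo2 and Nkd2. The other p16+ libraries were at the extremes as often. Replicate 1 was highest in Wnt4, Rspo1 and Nkd1 and lowest in Rspo2, Rspo3 and Axin2. Replicate 2 was highest in Wnt2, Rspo3, Axin2 and Tcf7 and lowest in Wnt4 and Nkd2. No test was made of these ratios.

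The transcription factors Tcf7 and Lef1 are nuclear partners of beta-catenin that are themselves induced by it, and both are also abundant in T cells. Tcf7 (chromosome 11, 52252371 to 52283014, minus strand) gave 0.962, 1.69 and 0.817 CPM in p16+ and 1.08, 0.554 and 0.591 CPM in p16-, from 22 to 62 counts per library. The groups overlapped, with p16+ replicate 2 the highest library. The log2 fold change was 0.64 (SE 0.53, adjusted p = 0.489, edgeR), and the 95% interval of -0.50 to 1.77 left a difference of either sign possible. Lef1 (chromosome 3, 131110471 to 131224356, plus strand) had 0 counts in all 6 libraries. Per library this allows up to 3 counts, or 0.0737 to 0.0875 CPM, for counting error only. Fragments in the 13.75% of its exonic length that Gm43352 overlaps would not have been counted. Of the 22028 protein-coding genes in the files, 5297 had 0 counts in every library, Lef1 among them. The 12 lymphocyte markers together came to 2.09 to 2.71 CPM in p16+ and 1.77 to 2.39 CPM in p16-, with the T cell genes Cd3d and Cd8a among those at 0 in p16+ and Cd3e, Ms4a1 and Nkg7 at 0 in p16-.

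Ordered per length, the members fell into similar ranks in the 2 groups, led by Wnt2 at 38.4 ± 6.21 TPM in p16+ and 43.0 ± 3.46 TPM in p16- (SD, n = 3 each). In p16+, Nkd1 at 9.21 ± 1.28, Axin2 at 8.94 ± 1.10, Rspo3 at 8.80 ± 3.14 and Nkd2 at 7.85 ± 1.56 TPM followed, within each other's spread. Rspo2, Rspo1, Wnt4 at 2.17 ± 0.910 TPM and Tcf7 at 1.74 ± 0.715 TPM came last, also within each other's spread. In p16-, Nkd2 at 10.2 ± 0.441 TPM was second, Nkd1 at 8.05 ± 0.832 the third, and Axin2 at 5.93 ± 0.572 TPM and Rspo3 overlapped. Rspo1 followed, and Rspo2, Tcf7 at 1.11 ± 0.403 TPM and Wnt4 at 1.02 ± 0.230 TPM were alike within their spread. Axin2 thus lay within the spread of Nkd2 in p16+ and below it in p16-, and Lef1 was at 0 in both.

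The 2 Wnt members were set beside the other ligands of their family to see how much of the Wnt transcript pool they make up. In p16+ Wnt9a led the 19 Wnt genes at 50.8 ± 4.37 TPM, above Wnt2 at 38.4 ± 6.21 TPM (SD, n = 3 each). In p16- Wnt11 at 45.1 ± 1.21 TPM and Wnt2 at 43.0 ± 3.46 TPM led, within each other's spread, and Wnt9a had 31.8 ± 2.95 TPM. Wnt4 ranked 9 by mean TPM over all libraries, at 1.59 TPM. Wnt2 was 23.8% to 26.6% of the summed Wnt TPM in p16+ libraries and 22.9% to 24.5% in p16-. The sum itself was 133 to 165 TPM in p16+ and 173 to 190 TPM in p16-, with no overlap. Around a similar share of Wnt2, other ligands differed.

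**Figure D3:**
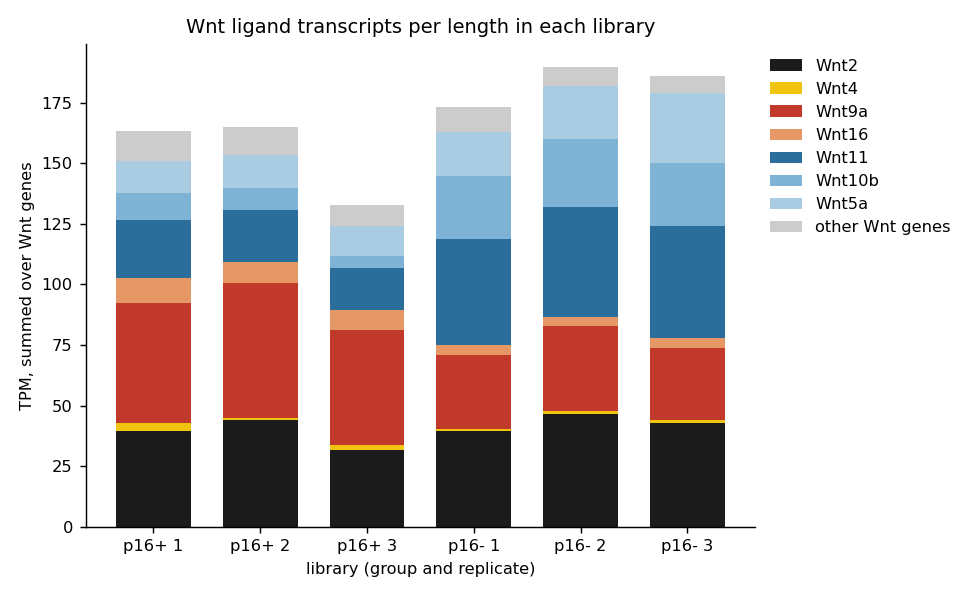
Wnt gene transcripts in each library, stacked, in TPM from 0. Wnt2 (black) takes 22.9% to 26.6% of each bar, while the Wnt9a part is larger in p16+ and the Wnt11, Wnt10b and Wnt5a parts are larger in p16-; Wnt4 is a thin yellow band.

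Of 18 other ligand genes, 10 were tested, 2 rose and 3 fell, with a median log2 fold change of 0.53. Wnt16, a ligand known from joint and bone tissue, rose from 4.34 ± 0.318 to 10.1 ± 1.47 CPM (log2 fold change 1.22, adjusted p = 0.000148, edgeR). Wnt10b, a canonical ligand that restrains adipocyte formation, fell from 23.0 ± 0.958 to 7.36 ± 2.78 CPM (log2 fold change -1.64, adjusted p = 3.5e-05, edgeR). Wnt11, which mostly signals without beta-catenin, fell from 47.4 ± 0.573 to 21.8 ± 3.70 CPM (-1.12, adjusted p = 4.4e-06). The 2 remaining calls, named after their values were seen, were a rise of Wnt9a from 26.9 ± 2.21 to 42.9 ± 3.48 CPM and a fall of Wnt5a, the main ligand of the branch without beta-catenin, from 45.3 ± 10.4 to 26.0 ± 1.23 CPM. These 5 calls held under all 14 alternatives. Wnt3 and Wnt3a, canonical ligands, and Wnt7a had 0 counts in every library, as did 5297 of the 22028 protein-coding genes in all.

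The machinery for making and receiving ligands was described from lists of pathway genes by role, 89 genes in all beside the members. Of these 75 were tested, 15 rose and 11 fell, or 34.7%, where 16.7% of all genes tested were called. Their median log2 fold change was 0.11. Both genes that act on the ligand itself before release and were called rose: Wls, the carrier of Wnt proteins to the cell surface, from 305 ± 14.7 to 415 ± 18.8 CPM (log2 fold change 0.44, adjusted p = 0.000683, edgeR), and Porcn, which attaches their lipid, from 12.2 ± 0.552 to 17.6 ± 0.773 CPM (0.53, adjusted p = 0.00585). The third gene of that list did not pass.

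**Figure D4:**
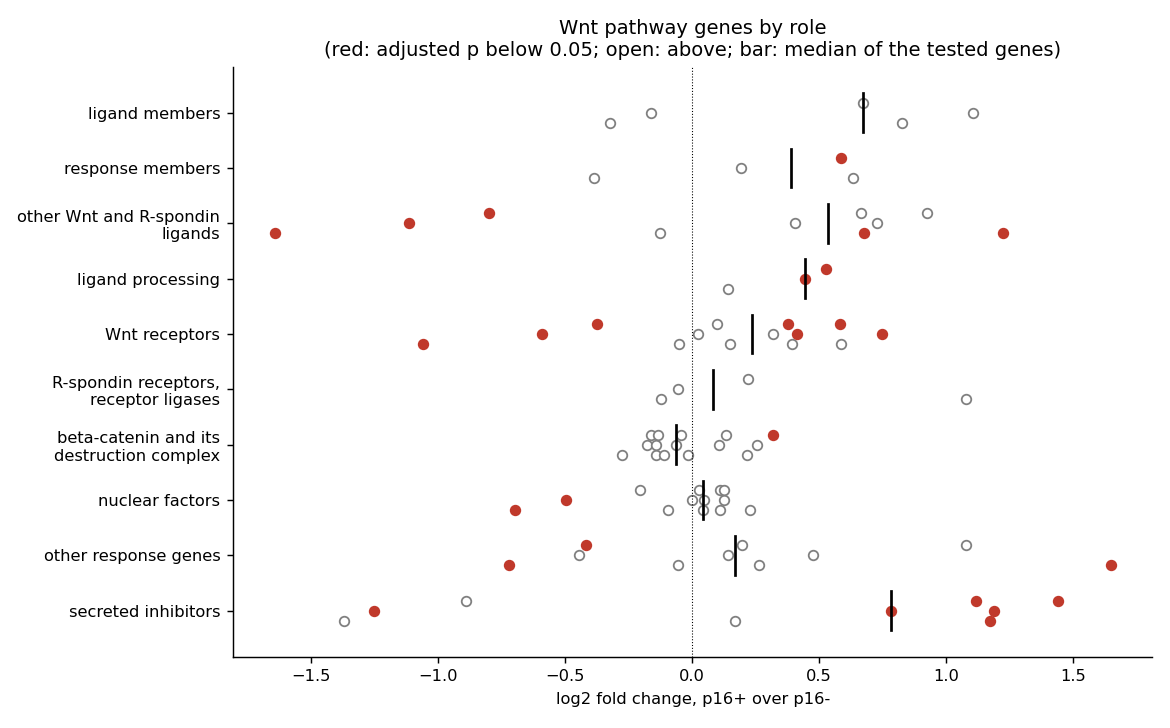
Log2 fold change, p16+ over p16- (horizontal axis), of each tested gene, in rows by role; red points have an adjusted p below 0.05, open points do not, and the bar is the median of the row. Calls lie on both sides of 0 among ligands, receptors, other response genes and inhibitors, and there is none among the ligand members or the R-spondin receptors.

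Of 14 Wnt receptors tested, 4 rose and 3 fell, with a median of 0.23. Fzd1 rose from 118 ± 8.68 to 199 ± 21.6 CPM (log2 fold change 0.75, adjusted p = 2.6e-05, edgeR). Fzd10 fell from 14.4 ± 1.56 to 6.92 ± 0.558 CPM (-1.06, adjusted p = 0.000105), and Fzd4 fell from 109 ± 12.7 to 72.7 ± 2.32 CPM (-0.59, adjusted p = 0.00017). Frizzled genes were thus called in both directions. The co-receptors Lrp5 and Lrp6, named after their values were seen, did not pass, at 85.2 ± 4.65 and 201 ± 19.3 CPM in p16+ and 76.9 ± 3.99 and 208 ± 26.3 CPM in p16-.

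The receivers of the R-spondins did not pass the test in any instance. Of the 5 listed, 4 were tested and 0 were called by edgeR, with a median log2 fold change of 0.08. At an unadjusted p under 0.05 there were also 0, where 4473 of all 15903 genes tested were under it. Lgr4 was the most abundant, with 33.0 ± 2.50 CPM in the p16+ group and 36.0 ± 5.34 CPM in p16- (log2 fold change -0.12, 95% interval -0.36 to 0.11, adjusted p = 0.524, edgeR). Lgr5 and Lgr6, named after their values were seen, were scarce, at 7 to 66 and 0 to 25 counts per library. Their 95% intervals, -0.35 to 2.50 and -2.06 to 2.49, did not exclude large differences. Rnf43, the gene of the list that was not tested, had 0 counts in every library.

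In the destruction complex and its substrate, 1 of 15 genes rose and 0 fell, and the median was -0.06. The riser was Ctnnb1, which encodes beta-catenin, from 349 ± 18.3 to 435 ± 16.7 CPM (log2 fold change 0.32, adjusted p = 0.00827, edgeR). That call was lost without p16+ replicate 3 (adjusted p = 0.0553), and 15.06% of the exonic length overlaps another gene. Among 13 nuclear factors 0 rose and 2 fell, with a median of 0.04. They were Tcf7l1, which often acts as a repressor of Wnt targets, from 66.9 ± 4.63 to 47.4 ± 3.12 CPM (log2 fold change -0.50, adjusted p = 0.000564), and the co-repressor Tle4, from 12.6 ± 1.45 to 7.81 ± 2.42 CPM (-0.70, adjusted p = 0.021). The call of Tle4 was lost without p16+ replicate 1, without p16+ replicate 2 and without p16- replicate 3 (adjusted p of 0.0821 to 0.108).

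Axin2 was read beside 13 other genes that respond to the pathway, of which 10 were tested, 1 rose and 2 fell, with a median of 0.17. Ccn4, a matricellular protein first described as a Wnt-induced gene, rose from 23.3 ± 4.04 to 73.2 ± 9.55 CPM (log2 fold change 1.65, adjusted p = 2.3e-07, edgeR). Apcdd1, an inhibitor at the cell surface, fell from 61.6 ± 1.09 to 37.4 ± 3.60 CPM (-0.72, adjusted p = 2.5e-05). Dact1, which binds Dishevelled as the Nkd proteins do, fell from 88.2 ± 1.57 to 66.1 ± 5.74 CPM (-0.42, adjusted p = 0.00155), and 34.91% of its exonic length overlaps 4930474H06Rik. The response genes called, Axin2 included, were thus 2 that rose and 2 that fell.

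Secreted inhibitors held 6 calls among 9 genes tested, 5 higher and 1 lower, with a median of 0.78. Those with the smallest p were Dkk3, Dkk2 and Sfrp2. Dkk3, a divergent member of the Dickkopf family, rose from 103 ± 10.6 to 232 ± 16.7 CPM (log2 fold change 1.17, adjusted p = 3.0e-07, edgeR), and Sfrp2, which binds Wnt proteins outside the cell, rose from 376 ± 57.3 to 817 ± 115 CPM (1.12, adjusted p = 5.0e-06). Of the exonic length of Sfrp2, 16.12% overlaps Gm26771 on the opposite strand. Dkk2, which binds Lrp5 and Lrp6, fell from 83.9 ± 12.6 to 35.2 ± 5.07 CPM (-1.25, adjusted p = 2.0e-06).

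How far the members' calls depended on the setting was read from the adjusted p under each of the 14 alternatives. Axin2 was called in 11 of them, Rspo3 in 3, Wnt4 in 2 and Nkd2 in 1. Wnt2, Rspo1, Rspo2, Tcf7 and Nkd1 were called in 0.

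**Figure D5:**
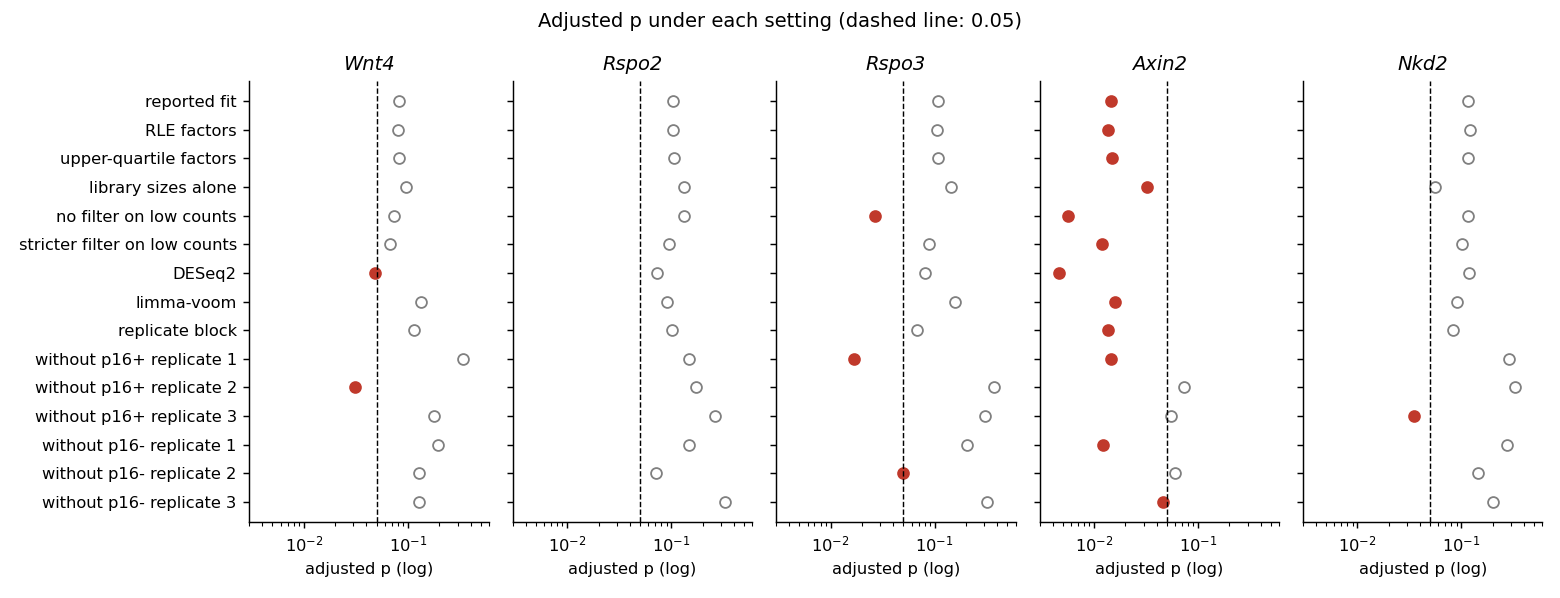
Adjusted p (horizontal, log axis) of 5 genes under the reported fit and each of 14 alternatives (rows); red points are below 0.05, marked by the dashed line, and open points are above. Axin2 crosses the line when p16+ replicate 2, p16+ replicate 3 or p16- replicate 2 is left out, and Rspo2 is never below it.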

How the data were processed

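Counts of fragments per gene for 6 libraries, 3 per group, were deposited by the authors; they were made with featureCounts 1.6.0 on GENCODE vM21 exons, without a strand option, per the file headers. The submitters' processing notes name bcl2fastq, STAR 2.7.3a and the build GRCm38.p6. The kit does not mark strand, per the labels' protocols, so fragments where genes overlap cannot be assigned by strand.

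All 55536 identifiers matched vM21, from which symbols came. Genes were filtered with filterByExpr (15903 kept) and tested with edgeR 4.0.16 in R 4.3.3 (TMM factors, glmQLFit with robust estimation, glmQLFTest, group alone, Benjamini-Hochberg adjustment over all genes tested, threshold 0.05). CPM used the TMM-scaled library size, and TPM was computed from counts and exonic length. Exact permutation tests used log2 CPM with a prior count of 2. The common biological coefficient of variation was 0.158, and 3 counts equalled 0.0737 to 0.0875 CPM.

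The members and lists were chosen with earlier results of these data known. Named were all members, up to 3 genes of each pathway list with the smallest p among those called, or its most abundant gene where none was, and Cdkn2a. The values of some listed markers are not reported here. Alternatives were RLE and upper-quartile factors, library sizes alone, no filter, a stricter filter (CPM of at least 1 in 3 libraries), DESeq2 1.42.0, limma-voom (limma 3.58.1), a replicate block and leaving out each library.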

Additional observations from a re-analysis of the deposited data

How the results depend on the processing

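Of 1183 recomputed fold changes of 85 genes over 14 alternatives, 1115 kept their direction and their side of the threshold, 27 became called and 12 lost the call. The other 29 moved, and 0 called values reversed. Ligand genes called higher were 0, but 1 with no filter on low counts (Rspo3), 1 with DESeq2 (Wnt4) and 0 to 1 when 1 library was left out. Response genes called higher were 1, and 0 to 1 when 1 library was left out. Response genes called lower were 0, and 0 to 1 when 1 library was left out, with Nkd2 called without p16+ replicate 3. Genes called over the whole table were 2660, and 1887 to 2567 when 1 library was left out. With library sizes alone the share of calls that were higher in p16+ was 36.0% in place of 52.0%, and the median log2 fold change was -0.08. Whether same-numbered libraries came from the same animals is not known. Correlations of deviations from the group means were 0.0284, 0.0821 and -0.0046 for same-numbered libraries over 15903 genes. For libraries of unlike number they were -0.0690 to 0.0394, and not every library correlated best with its own number. Values this weak, from 3 libraries a group, cannot decide whether the samples were paired. With the number as a replicate block, 3114 genes were called, Axin2 had a log2 fold change of 0.59 (adjusted p = 0.0136, edgeR), 0 ligand genes were called, and of the other pathway genes 18 were higher and 13 lower in place of 15 and 11. Rspo1, Rspo2, Tcf7 and Wnt4 had at most 119 counts in every library, so their intervals are wide, and Lef1 was below what this depth detects.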
